A study of Rattus norvegicus with 6 samples.

Results

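The rat genes that present antigen to T cells were measured as mRNA in 6 PAIII tumors. They were taken as every row of the expression table whose name begins with RT1-, the prefix of the rat major histocompatibility complex (MHC), together with 10 genes chosen by name, namely B2m, Cd74, Tap1, Tap2, Tapbp, Psmb8, Psmb9, Psmb10, Ciita and Nlrc5. This rule gave 58 genes of the 17030 symbols in the table. Of these, 39 were RT1 class I genes, 10 were RT1 class II genes and 9 were genes outside the RT1 family, while Nlrc5 was not analysed here. Where a symbol occupied several rows, the row of highest mean stood for it.

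Class I molecules pair a heavy chain from an RT1 gene with the light chain B2m (beta-2-microglobulin) and show peptides from inside the cell to CD8+ T cells. The peptides are cut by the proteasome, whose immune form carries Psmb8, Psmb9 and Psmb10, pumped into the endoplasmic reticulum by the transporter of Tap1 and Tap2, and loaded with the help of tapasin (Tapbp). Class II molecules are alpha and beta chains of RT1-B and RT1-D that show peptides from taken-up proteins to CD4+ T cells, are chaperoned by the invariant chain Cd74, and are switched on by the transactivator Ciita, chiefly in dendritic cells, B cells and macrophages and, under interferon gamma, in many other cells.

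The tumors grew from PAIII cells, a transplantable line of castration-resistant prostate adenocarcinoma passaged in immunologically intact Lobund-Wistar rats, injected under the skin of the flank of rats 2 months old. Rats A1, A6 and A12 received digitoxin, a cardiac glycoside, at 0.03 mg/kg into the peritoneum each day from day 10. Rats B5, B9 and B14 were the vehicle controls, and tumors were taken on day 40, so that n = 3 rats in each group. Pieces punched from viable, tumor-rich areas of each tumor were pooled into 1 library. The rats to be sequenced came from the extremes of 2 serum cytokines, IL-6 and CINC-1, with digitoxin rats low and vehicle rats high, so treatment and cytokine level cannot be told apart in these tumors. In bulk tissue, fewer cells of a type and less RNA per cell cannot be told apart either.

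Libraries were not most alike within a treatment group, and this touched the genes described here. A list of 11 lung epithelial genes in the table was summed in FPKM (mapped fragments per kilobase, scaled to the size of each library). The sums were 43.2 FPKM in A12 and 64.2 FPKM in B14, but between 48676 and 214242 FPKM in A1, A6, B5 and B9. Beside alveolar genes the list held the airway gene Scgb1a1, which alone was at 20630 (B5) to 129228 FPKM (A6) in those 4 tumors. Surfactant protein C (Sftpc) was at 19188 FPKM or more in those 4 tumors but at 0.229 FPKM in A12, and B14 listed it at 0. Whether the pieces of those 4 tumors held lung or lung metastasis rather than subcutaneous tumor alone is in doubt and was not tested, and the levels below are those of the pieces as sequenced. The epithelial keratin Krt8 ran from 398 to 2095 FPKM, while the prostate lineage gene Hoxb13 was at most 0.0937 FPKM and Pbsn was listed at 0 in every tumor. Results below are therefore given for every tumor. The labels of A1 and B9 are in doubt from other material of the study, which was not tested here, so every difference between digitoxin and vehicle holds for the libraries as labelled.

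Before the levels, the promoters of 4 of the genes are shown, to let the class II chains be set beside Cd74 and a class I heavy chain. RefSeq promoters of build GRCr8, 250 bases before to 50 bases after each start site, were found for 49 of the 58 genes. Both strands were searched for the Y box, TGATTGG, the CCAAT element bound by NF-Y in class II promoters, and for GAANNGAAA, a core of the interferon-stimulated response element. The motifs do not share letters in the promoters printed here. Capitals mark a match on either strand, and sequences run 5′ to 3′ along the gene.
RT1-Da (chr20:4515165-4515464, plus strand): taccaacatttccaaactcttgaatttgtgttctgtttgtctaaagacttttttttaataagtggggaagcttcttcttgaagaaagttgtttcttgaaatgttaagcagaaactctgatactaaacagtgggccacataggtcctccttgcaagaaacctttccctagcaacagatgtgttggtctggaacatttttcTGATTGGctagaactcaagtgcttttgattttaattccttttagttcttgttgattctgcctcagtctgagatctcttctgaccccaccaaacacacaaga
RT1-Bb (chr20:4604069-4604368, minus strand): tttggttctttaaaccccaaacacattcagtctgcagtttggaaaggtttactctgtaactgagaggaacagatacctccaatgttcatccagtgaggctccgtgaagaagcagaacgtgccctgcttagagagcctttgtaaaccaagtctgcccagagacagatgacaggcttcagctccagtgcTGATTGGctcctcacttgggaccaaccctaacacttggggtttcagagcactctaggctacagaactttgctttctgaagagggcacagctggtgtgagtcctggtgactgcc
Cd74 (chr18:56526956-56527255, plus strand): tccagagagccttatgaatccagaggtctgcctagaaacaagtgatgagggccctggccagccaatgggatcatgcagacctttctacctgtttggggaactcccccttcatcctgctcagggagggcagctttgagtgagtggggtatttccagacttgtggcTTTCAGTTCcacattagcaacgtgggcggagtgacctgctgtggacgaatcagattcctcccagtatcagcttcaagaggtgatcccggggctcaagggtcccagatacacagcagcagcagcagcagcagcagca
RT1-CE16 (chr20:3265394-3265693, minus strand): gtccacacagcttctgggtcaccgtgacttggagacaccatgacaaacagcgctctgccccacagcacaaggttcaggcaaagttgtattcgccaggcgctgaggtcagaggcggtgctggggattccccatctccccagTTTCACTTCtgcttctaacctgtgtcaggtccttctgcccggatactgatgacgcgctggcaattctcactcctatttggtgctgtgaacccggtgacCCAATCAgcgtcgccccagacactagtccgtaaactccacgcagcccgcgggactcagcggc
The Y box lay in 9 of 9 class II promoters, always on the gene's own strand and beginning between positions -119 and -45 from the start site. It lay in 15 of 32 class I promoters (46.9%), on the opposite strand in 12 and on the gene's strand in 3, and in 1 of 8 promoters of the other genes, against 7.06% of all 33469 promoters. The response element core lay in 0 of 9 class II promoters, in 13 of 32 class I promoters (40.6%) and in 4 of 8 of the others (Cd74, Psmb8, Tap2 and Tapbp), against 8.54% of all promoters. These are matches of letters, not measured binding.

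Of the 58 genes, 35 averaged 1 FPKM or more across tumors and were tested, namely 21 class I genes, 6 class II genes and 8 of the others. The 23 not tested included 7 genes listed at 0 in every tumor, which were 5 class I genes, RT1-Ha and Tap2. FPKM is per transcript length, so levels of genes can be set side by side as listed. Loss of reads in mapping was not examined, so a ratio between genes need not be their true relative abundance. Least comparable are class I genes that may share reads and symbols on repeated rows, both described below. By mean level B2m was the most abundant gene, followed by Cd74, and the plot of levels in each tumor shows the 20 named genes with a mean of at least 1 FPKM.

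**Figure D1:**
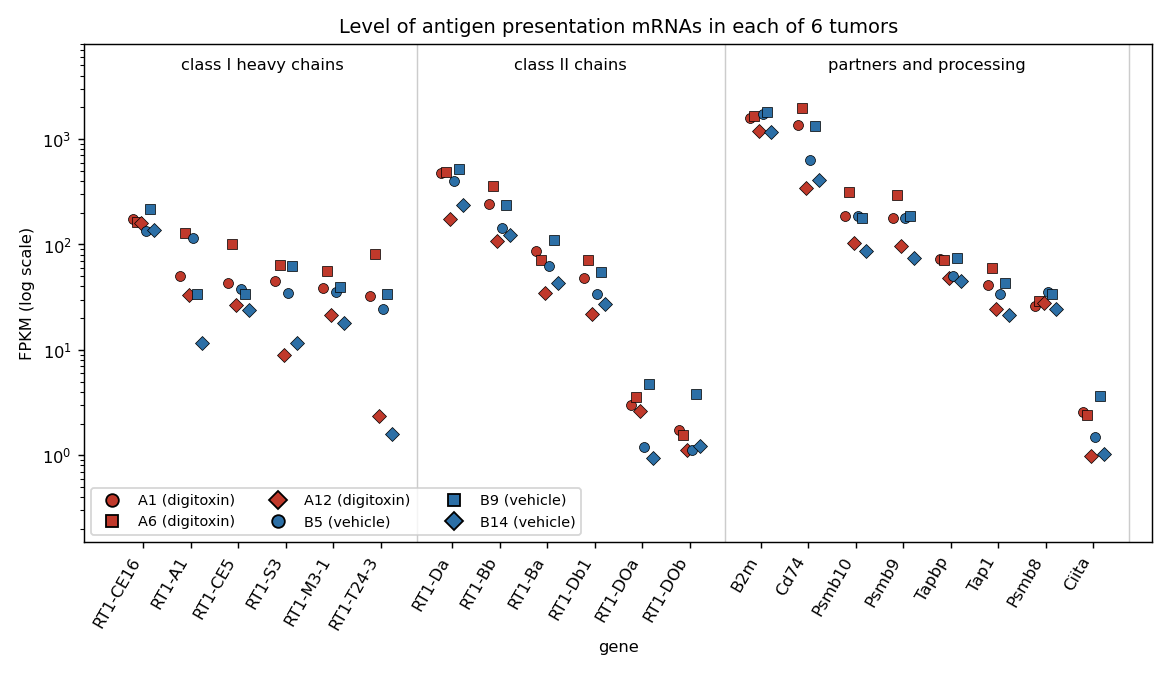
FPKM on a log axis of 6 class I heavy chains, 6 class II chains and 8 partner and processing genes in each tumor. Each point is 1 tumor, red for digitoxin and blue for vehicle, with the shape marking the replicate number. The diamonds of A12 and B14 are the lowest points of most genes, and red and blue overlap for each gene shown.

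Among class I heavy chains, RT1-CE16 (chr20:5857676-5876456 of Rnor 5.0) had the highest mean and varied least between tumors of the 6 named. It was at 175 FPKM in A1, 163 FPKM in A6 and 161 FPKM in A12, and at 134 FPKM in B5, 216 FPKM in B9 and 136 FPKM in B14. The highest tumor was 1.62 times the lowest, and the groups overlapped, with a log2 fold change, digitoxin over vehicle, of 0.072 ± 0.25 (SE, n = 3 per group, limma adjusted p = 0.962). It supplied between 21.3% (A6) and 43.9% (B14) of the summed class I FPKM, and its locus overlaps that of RT1-A3, so reads of the pair may have been divided between them.

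RT1-A1, which bears the name of the classical class I region RT1-A, was far less even. Its level was 50.7 FPKM in A1, 128 FPKM in A6 and 33.0 FPKM in A12, and 114 FPKM in B5, 33.7 FPKM in B9 and 11.6 FPKM in B14. One tumor of each group stood high, A6 and B5, and the groups overlapped (log2 fold change 0.72 ± 0.88, adjusted p = 0.926). RT1-CE5 was at 43.4, 100 and 26.4 FPKM in A1, A6 and A12 and at 38.1, 33.9 and 23.6 FPKM in B5, B9 and B14. Only A6 stood apart, and the log2 fold change was 0.62 ± 0.50 (adjusted p = 0.926), which became 0.11 without A6.

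The nonclassical heavy chains RT1-S3, RT1-M3-1 and RT1-T24-3 were all lowest in A12 and B14. RT1-S3 was at 45.1, 63.5 and 8.92 FPKM in A1, A6 and A12 and at 34.3, 62.5 and 11.6 FPKM in B5, B9 and B14. RT1-M3-1, of the M3 family whose mouse member presents formylated peptides, was at 38.8, 55.8 and 21.4 FPKM and at 35.8, 39.5 and 18.1 FPKM in the same order. RT1-T24-3 was at 32.4, 80.9 and 2.35 FPKM in A1, A6 and A12 and at 24.3, 33.6 and 1.60 FPKM in B5, B9 and B14. For RT1-T24-3 the highest tumor, A6, was 50.6 times the lowest, B14, and each treatment group held both high and low tumors (log2 fold change 0.67 ± 1.46, adjusted p = 0.945). The remaining 15 tested class I genes had means from 1.04 FPKM (RT1-CE1) to 28.1 FPKM (RT1-N3).

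Several class I loci cannot be read alone. In all, 16 class I symbols overlap another class I locus or share its start site, and 3 pairs share a start site. RT1-N1 was at 0.0011 FPKM in A6 and 13.9 FPKM in B14, while its partner RT1-N2 was at 19.3 FPKM in A6 and 4.11 FPKM in B14. Their sum was 17.8, 19.3 and 18.5 FPKM in A1, A6 and A12 and 17.7, 37.9 and 18.0 FPKM in B5, B9 and B14, level in all tumors but B9. RT1-CE11 was at 13.0 FPKM in A6 and at most 0.026 FPKM in the other 5 tumors, while its sum with RT1-CE7 ran from 15.9 FPKM (B5) to 37.1 FPKM (A12). RT1-CE12 and RT1-CE1 were split even further, with RT1-CE12 at 1.21e-52 FPKM in A12, where RT1-CE1 was at 1.96 FPKM. How Cufflinks divided reads between such related genes, and how the haplotype of Lobund-Wistar rats differs from the reference, was not tested, and levels of single members of these pairs are uncertain.

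**Figure D2:**
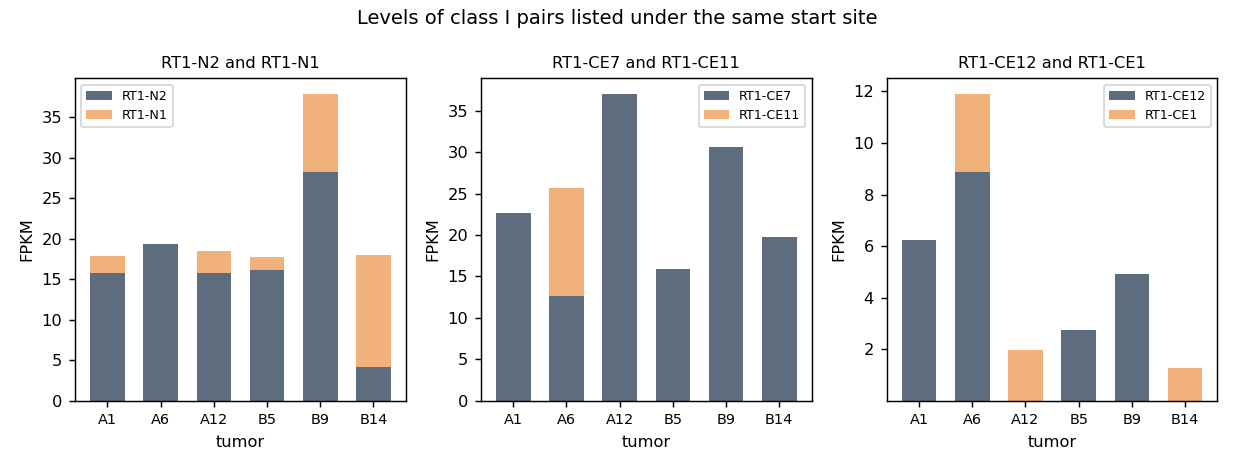
FPKM in each tumor for the 3 pairs of class I genes listed under 1 start site, stacked so that the bar height is the sum of the pair. RT1-CE12 and RT1-CE1 trade places between tumors, RT1-CE11 is visible in A6 alone and RT1-N1 exceeds RT1-N2 in B14 alone, while the summed height of RT1-N1 and RT1-N2 lies between 17.7 and 37.9 FPKM.

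Class II chains were led by RT1-Da, the alpha chain of RT1-D (chr20:6207782-6212754 of Rnor 5.0), which exceeded every class I heavy chain in each tumor. RT1-Da was at 481 FPKM in A1, 486 FPKM in A6 and 176 FPKM in A12, and at 400 FPKM in B5, 520 FPKM in B9 and 237 FPKM in B14. The groups overlapped, A12 and B14 were below the other 4 tumors, and the log2 fold change was -0.088 ± 0.50 (adjusted p = 0.975). RT1-Db1, a beta chain of the same molecule, followed it at 48.1, 71.8 and 22.1 FPKM in A1, A6 and A12 and 33.6, 54.9 and 27.2 FPKM in B5, B9 and B14. The ratio of RT1-Da to RT1-Db1 ran from 6.77 (A6) to 11.9 (B5).

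The RT1-B chains showed the same order of tumors at the low end. RT1-Bb, the beta chain, was at 241, 356 and 107 FPKM in A1, A6 and A12 and at 143, 235 and 123 FPKM in B5, B9 and B14 (log2 fold change 0.38 ± 0.49, adjusted p = 0.926). RT1-Ba, the alpha chain, was at 87.1, 71.8 and 34.3 FPKM and at 62.6, 110 and 43.1 FPKM in the same tumors (log2 fold change -0.15 ± 0.48, adjusted p = 0.957). Both groups contained a tumor with each chain low, and the groups overlapped for both. RT1-DOa and RT1-DOb, which form the regulator of peptide exchange DO, were near the limit for testing, at 0.946 to 4.74 FPKM and 1.11 to 3.84 FPKM, and each was highest in B9.

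RT1-DMa and RT1-DMb, the peptide exchange factor, RT1-Ha and the transporter subunit Tap2 were at or near 0, which says nothing of their absence in these tumors. Each has 2 rows in the table, in 2 intervals of chromosome 20 (chr20:5955099-6089133 and chr20:7259226-7349292) that repeat the same genes, and every row of the 5 symbols placed in both intervals, Brd2 included, had a mean under 1 FPKM. Across the table, 94.9% of the 467 symbols on more than 1 row had their highest row under 1 FPKM, against 35.3% of the 16563 symbols on 1 row. The levels of these genes are therefore unknown here.

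Partners of the class II chains had the same low tumors. Cd74 was at 1354 FPKM in A1, 1993 FPKM in A6 and 342 FPKM in A12, and at 636 FPKM in B5, 1334 FPKM in B9 and 407 FPKM in B14. Its range was 5.82-fold, its groups overlapped, and the group means were 1230 ± 832 FPKM for digitoxin and 792 ± 483 FPKM for vehicle (SD, n = 3), with a log2 fold change of 0.47 ± 0.76 (adjusted p = 0.931). Ciita was at 2.58, 2.42 and 0.973 FPKM in A1, A6 and A12 and at 1.49, 3.64 and 1.03 FPKM in B5, B9 and B14, again lowest in A12 and B14 (log2 fold change 0.015 ± 0.46, adjusted p = 0.997).

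The class I light chain B2m varied less between tumors than any other partner gene except Psmb8. It was at 1598 FPKM in A1, 1657 FPKM in A6 and 1187 FPKM in A12, and at 1745 FPKM in B5, 1827 FPKM in B9 and 1156 FPKM in B14. Its highest tumor was 1.58 times its lowest, and its log2 fold change was -0.077 ± 0.31 (adjusted p = 0.967). B2m exceeded the summed class I heavy chains as listed in each tumor, by 2.17 (A6) to 3.73 times (B14). Whether reads of the related class I loci were lost from that sum was not tested.

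In the peptide supply, Psmb9 and Psmb10 followed each other and Psmb8 did not. Psmb9 (chr20:6052972-6058393) was at 178, 294 and 97.5 FPKM in A1, A6 and A12 and at 179, 187 and 74.0 FPKM in B5, B9 and B14. Psmb10, on chromosome 19, was at 187, 314 and 104 FPKM and at 186, 179 and 86.5 FPKM in the same tumors. Their ratio lay between 0.856 and 1.05 in the 6 tumors, while Psmb8, which lies near Psmb9 and Tap1 on chromosome 20, was at 25.9, 29.3 and 27.7 FPKM and at 35.2, 33.7 and 24.5 FPKM. Groups overlapped for all 3 subunits, with log2 fold changes of 0.35 ± 0.53 for Psmb9, 0.36 ± 0.49 for Psmb10 and -0.15 ± 0.23 for Psmb8 (adjusted p between 0.927 and 0.931).

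Psmb8 thus ranged 1.44-fold across tumors where Psmb9 ranged 3.98-fold and Psmb10 3.63-fold, and the ratio of Psmb9 to Psmb8 ran from 3.02 (B14) to 10.05 (A6). Each immune subunit takes the place of a constitutive one, Psmb8 of Psmb5, Psmb9 of Psmb6 and Psmb10 of Psmb7. The ratio of Psmb8 to Psmb5 was 0.101, 0.0907 and 0.0934 in A1, A6 and A12 and 0.120, 0.147 and 0.110 in B5, B9 and B14. Every digitoxin tumor was below every vehicle tumor for this ratio, which was singled out after its values were seen and was not tested; 3 rats against 3 cannot go below p = 0.10 in an exact two-sided permutation test. Psmb10 to Psmb7 ran from 0.459 (B14) to 1.95 (A6), and Psmb9 to Psmb6 from 4.28 (B14) to 8.33 (B9), both with overlapping groups.

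The transporter and loading genes were intermediate. Tap1, whose RefSeq start site lies 457 bases from that of Psmb9, was at 41.1, 59.4 and 24.6 FPKM in A1, A6 and A12 and at 34.2, 43.5 and 21.4 FPKM in B5, B9 and B14. Tapbp was at 73.1, 71.0 and 48.6 FPKM and at 50.7, 74.0 and 45.4 FPKM. Both were lowest in A12 and B14, with log2 fold changes of 0.30 ± 0.41 for Tap1 and 0.19 ± 0.28 for Tapbp (adjusted p = 0.927 and 0.931).

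The question put to these tumors was whether digitoxin changed the genes, and no change passed the test. With limma's moderated test and Benjamini-Hochberg adjustment over 10749 rows, 0 of the 35 genes had an adjusted p under 0.05, as had 0.0% of all rows. At an unadjusted p under 0.05 it was also 0 of 35, against 0.335% of all rows (36 rows), and the smallest p was 0.0774 for RT1-N1 (log2 fold change -1.73 ± 0.82, adjusted p = 0.926), which shares its start site with RT1-N2. Groups failed to overlap for 1 gene, RT1-CE11, against 4.16% of all rows (0.902% with digitoxin higher and 3.26% with digitoxin lower). It was at 13.0 FPKM in A6, 0.026 FPKM in A1 and lower still in the rest, so all tumors but A6 were ordered on values near 0 and this is no difference between the groups. With the replicate number as a block, RT1-N1 came to an unadjusted limma p of 0.0400 (adjusted p = 0.638), and 446 of all rows were under 0.05. No other tool was run, since the table holds FPKM and not counts.

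Estimated differences leaned upward without passing the test. The log2 fold change was above 0 for 25 of 35 genes, against 35.1% of all rows, and its median was 0.26 over 21 class I genes, 0.055 over 6 class II genes and -0.16 over all rows. Scaled by median of ratios, which moved the median of all rows to 0.018, the medians were 0.44 for class I and 0.25 for class II, and the estimates of B2m, RT1-Da, RT1-Ba and Psmb8 went from below 0 to 0.12, 0.11, 0.043 and 0.038. The lung genes leaned the same way, with 10 of 11 above 0 and a median of 0.57, and A6 had the highest lung sum. Their part in the lean was not tested. The medians moved with single tumors. Without A6 they were 0.027 for class I, -0.21 for class II and -0.080 for all rows, and without B14 they were -0.060, -0.20 and -0.23. Without A1 they were 0.16, -0.091 and -0.23. Without A12 they were 0.48, 0.47 and -0.23, and without B9 they were 0.48, 0.34 and -0.12. A6 was the highest tumor for 17 of the 35 genes, or 48.6%, against 23.9% of all rows, and the vehicle tumor B9 for 14, or 40%, against 19.3%. B14 was the lowest for 16, or 45.7%, against 17.1% of all rows, and the digitoxin tumor A12 for 10, or 28.6%, against 20.5%.

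**Figure D3:**
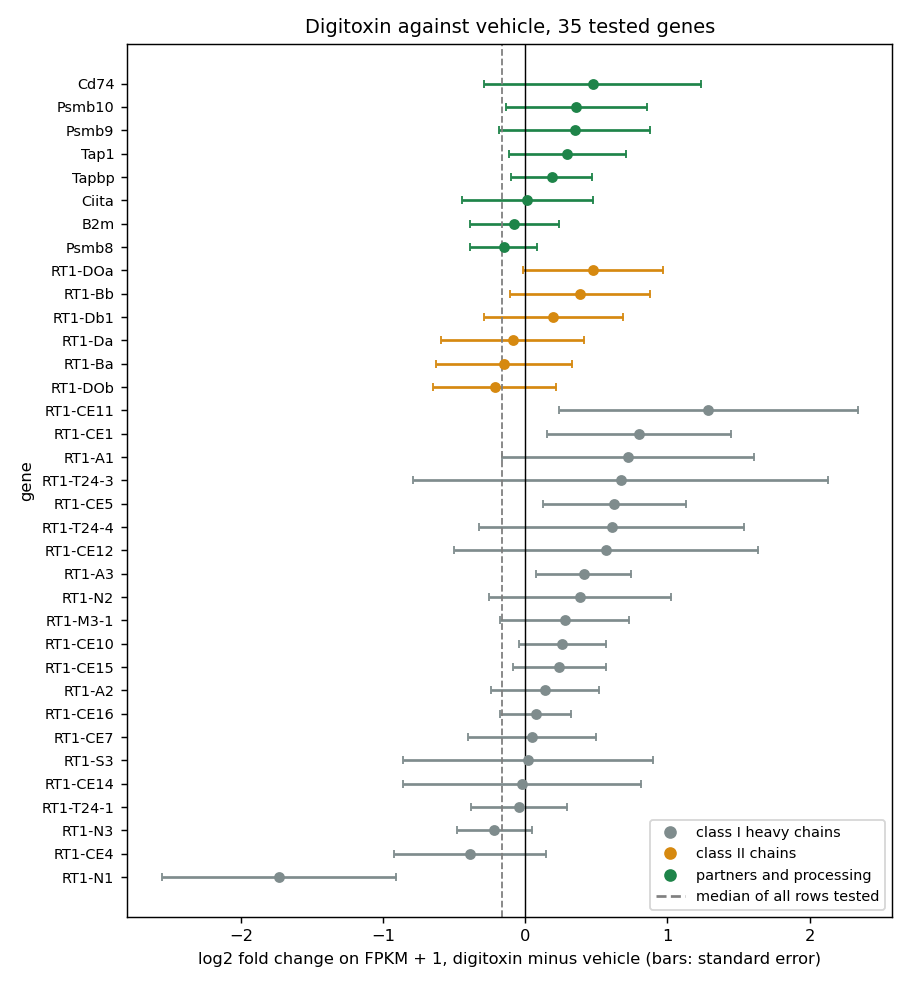
Log2 fold change of FPKM + 1, digitoxin minus vehicle, for the 35 tested genes, with bars for the standard error of limma (n = 3 per group) and a dashed line at the median of all rows tested, -0.16. Most estimates lie right of the dashed line, and none passed the adjusted threshold.

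Class I and class II were then contrasted within each tumor by summing FPKM. Class I heavy chains summed to 529 FPKM in A1, 763 FPKM in A6 and 394 FPKM in A12, and to 512 FPKM in B5, 624 FPKM in B9 and 310 FPKM in B14. Class II chains summed to 863 FPKM in A1, 992 FPKM in A6 and 343 FPKM in A12, and to 642 FPKM in B5, 928 FPKM in B9 and 433 FPKM in B14. By these sums class II exceeded class I in 5 of 6 tumors, and A12 was the exception. This order depended on the top gene of each class, as given below.

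Among digitoxin tumors the ratio of class II to class I was 1.63 for A1, 1.30 for A6 and 0.871 for A12. Among vehicle tumors it was 1.25 for B5, 1.49 for B9 and 1.39 for B14. The means were 1.27 ± 0.381 for digitoxin and 1.38 ± 0.117 for vehicle (SD, n = 3), a difference smaller than the spread of the digitoxin tumors, which held both the highest and the lowest ratio. By the full sums the vehicle ratio was much the same in B14 as in B5 and B9, although B14 had the lowest class I sum. RT1-Da alone made between 49.0% and 62.3% of the class II sum. Without the top gene of each class, RT1-Da and RT1-CE16, the mean ratios were 0.880 for digitoxin and 0.922 for vehicle. The ratio was then 1.08 in A1, 0.843 in A6 and 0.719 in A12, and 0.640 in B5, 0.9999 in B9 and 1.12 in B14. Class II thus led only in A1 and B14, and the vehicle ratios were no longer alike.

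**Figure D4:**
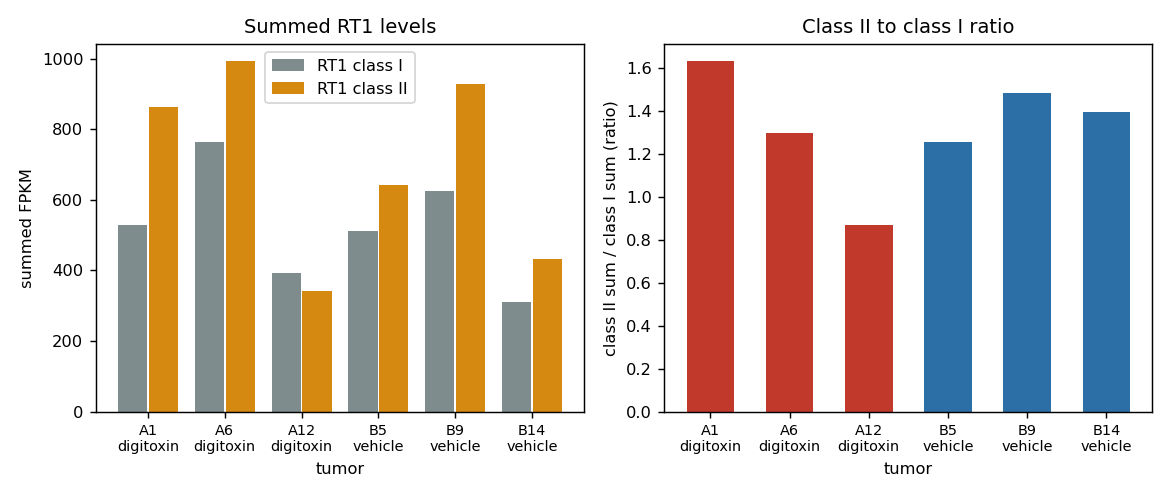
Left, summed FPKM of RT1 class I and RT1 class II genes in each tumor. Right, the ratio of the sums, red for digitoxin and blue for vehicle. Class II is the taller bar in 5 tumors, and in A12 the ratio falls to 0.871.

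The larger pattern in these genes followed A12 and B14 rather than treatment. Of the 35 tested genes, 19 (54.3%) were lower in both A12 and B14 than in the other 4 tumors, against 29.3% of all rows, and 0 were higher in both, against 30.1% of all rows. The 19 were 8 of 21 class I genes, 4 of 6 class II genes (RT1-Da, RT1-Bb, RT1-Ba and RT1-Db1) and 7 of 8 of the others, Psmb8 being the exception. The median ratio of the mean of the other 4 tumors to the mean of A12 and B14 was 1.81 for class I and 2.12 for class II, against 0.935 for all rows. This ratio was at least 2 for 17 of the 35 genes, against 19.2% of all rows. Among the 17 were RT1-CE11, high in A6 alone, and RT1-CE12, neither of which can be read alone. RT1-T24-4, near 0 in B5 as well as in A12 and B14, was also among them. This split of the tumors was read from the data, is no group of the study, and was not tested.

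Some marker lists of other cells differed along the same split, for which all rows gave 29.3% lower in both and 30.1% higher in both. T and NK cell genes were lower in both A12 and B14 for 10 of 13 tested genes, and the list summed to 33.8 and 62.2 FPKM in A12 and B14 and to between 120 and 198 FPKM in the other 4 tumors. B cell genes were lower for 4 of 5, with sums of 16.8 and 16.1 FPKM against 25.04 to 57.6 FPKM, and 5 of the 10 B cell genes in the table were listed at 0 in A12 or B14, with Ms4a1 at 0 in B14 among them. Dendritic cell genes were lower in both for 3 of 6 (Batf3, Cd83 and Clec9a) and higher in both for 1 (Clec10a), and Flt3 and Xcr1, too low to be tested, were also lower in both. Their sum did not separate the tumors, at 69.9 FPKM in A12 and 86.9 FPKM in B14 against 70.5 to 90.9 FPKM. Macrophage genes were lower for 6 of 13 and higher for 3 of 13, and their sum was highest in B14, at 1591 FPKM. All 11 lung genes were lower. The part of these cells in the levels of the RT1 genes was not tested.

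Within the macrophage list, genes pointed both ways. Cd68 was at 85.6 FPKM in A12 and 144 FPKM in B14 against 145 to 270 FPKM in the other 4 tumors, whereas the complement gene C1qa was at 275 and 435 FPKM against 72.3 to 236 FPKM. Of the 6 tested genes of the prostate and epithelial list, 1 was higher in both A12 and B14 than in the other 4 tumors, namely Krt8, at 2095 and 1629 FPKM against 398 to 1618 FPKM, and 0 were lower in both. Epcam was at 525 and 436 FPKM against 208 to 460 FPKM, and the adhesion gene Cdh1 at 90.9 and 96.7 FPKM against 92.7 to 135 FPKM.

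**Figure D5:**
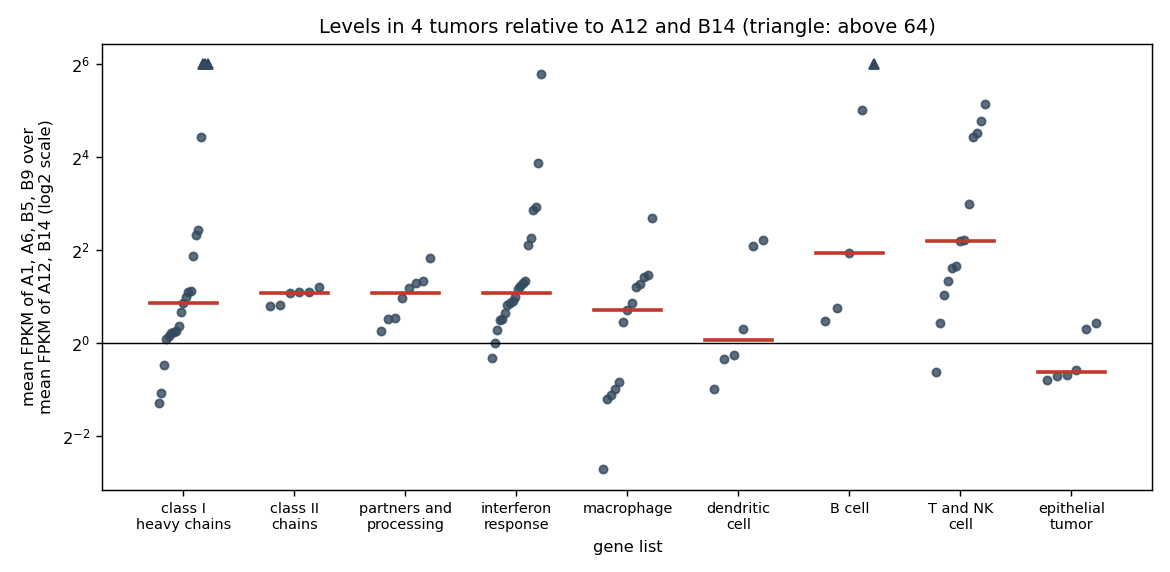
Mean FPKM of A1, A6, B5 and B9 over mean FPKM of A12 and B14, on a log2 axis, for each tested gene of the class I, class II and partner groups and of 6 marker lists, with red lines for medians. The class II chains lie close together around 2.12, the T and NK cell list has a median of 4.58, and the epithelial list has a median of 0.642, with Cdh1 and Fkbp5 above 1.

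Of 20 tested interferon response genes, 16 were lower in both A12 and B14, against 29.3% of all rows, and the list summed to 566, 674 and 305 FPKM in A1, A6 and A12 and to 533, 762 and 332 FPKM in B5, B9 and B14. Ifngr1, a chain of the interferon gamma receptor, was at 144, 210 and 52.5 FPKM and at 96.0, 128 and 77.9 FPKM, and Irf1, an activator of class I promoters, at 66.3, 68.6 and 51.3 FPKM and at 54.6, 92.2 and 46.9 FPKM. Ifng itself was at most 0.677 FPKM. Between digitoxin and vehicle, 0 of the 20 had an unadjusted p under 0.05, against 0.335% of all rows. Their log2 fold change was above 0 for 4 and below 0 for 16, against 35.1% of all rows above 0, and its median was -0.089, against -0.16.

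Among 13 tested helpers of the class I pathway, chiefly chaperones and proteasome subunits, 4 were lower in both A12 and B14, against 29.3% of all rows, and 7 were higher, against 30.1%. The 4 lower were the proteasome activators Psme1 and Psme2, the constitutive subunit Psmb6 and Tapbpl, a relative of tapasin. Psme1 was at 303 and 250 FPKM in A12 and B14 against 365 to 497 FPKM. The 7 higher included the chaperones Calr, Canx, Hspa5 and Pdia3. By treatment, 0 of the 13 had an unadjusted p under 0.05, against 0.335% of all rows, and 4 log2 fold changes were above 0 and 9 below, against 35.1% of all rows above 0.

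Of 16 tested class II helpers, 5 were lower and 5 higher in both A12 and B14, shares near those of all rows (29.3% and 30.1%). The lysosomal protease Ctsd was at 622 and 805 FPKM in A12 and B14 against 1402 to 2097 FPKM, while Ctsb was at 986 and 1195 FPKM against 807 to 959 FPKM. Of the factors that bind class II promoters with Ciita, Rfxap and Rfxank were lower in both, Nfyb and Creb1 were higher in both, and Rfx5, Nfya and Nfyc overlapped. By treatment, 0 of 16 had an unadjusted p under 0.05, against 0.335% of all rows, and 9 log2 fold changes were above 0 and 7 below, against 35.1% of all rows above 0.

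Of the 103 tested genes in the lists set beside the RT1 genes, 1 had an unadjusted p under 0.05, against 0.335% of all rows. It was the T cell coreceptor Cd4, which rat macrophages also carry. Cd4 was at 6.94, 5.43 and 6.94 FPKM in A1, A6 and A12 and at 8.70, 12.6 and 19.2 FPKM in B5, B9 and B14. Its groups did not overlap, with a log2 fold change of -0.90 ± 0.36 (SE). Groups failed to overlap for 3 of the 103 genes, Cd4, Rfx5 and Msr1, all lower with digitoxin, against 4.16% of all rows. In the limma fit across all rows its adjusted p was 0.926 (unadjusted p = 0.0431), so it did not pass the adjusted threshold. Cd8a, a chain of the coreceptor that meets class I, was at 21.9, 20.1 and 7.35 FPKM and at 45.2, 37.0 and 13.0 FPKM. Its groups overlapped, each digitoxin tumor was below the vehicle tumor of its number, and the log2 fold change was -0.87 ± 0.60 (adjusted p = 0.926). With the replicate block its standard error was 0.26 and its limma p 0.0146 (adjusted p = 0.638). No label ties rats of the same number together. Only A12 and B14 correlated more than every pair of different number, so results with the block are not those of a paired design. With the block, 10 of the 103 genes had an unadjusted p under 0.05 (9.71%), against 4.15% of all rows, and 0 passed the adjusted threshold. Beside Cd4 and Cd8a these were C1qa, C1qb, C1qc and Msr1, with log2 fold changes of -0.62, -0.73, -0.72 and -1.03, and the lung genes Scgb1a1, Sftpb, Ager and Sftpc, with 1.43, 0.95, 0.86 and 0.86.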

How the data were processed

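One messenger RNA library was made from each of 6 rat tumors, with groups taken from the labels. The authors deposited FPKM in 1 column per tumor, computed from single reads of a Genome Analyzer IIx by Bowtie 2, TopHat 2 and Cufflinks 2. The submitters' processing notes list the human build hg19, but contig names in the table carry the prefix AABR06 of the rat assembly Rnor 5.0, whose positions are given here counted from 1. Reads were not analysed here, so depth and counting error are unknown, and zeros are described as listed at 0. Summed FPKM ran from 651322 (B14) to 1025231 (A6), and 12148 to 13503 rows were above 0.

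Digitoxin and vehicle tumors were compared in R 4.3.3 by limma 3.58.1, with a trended eBayes after lmFit. The scale was log2(FPKM + 1), which understates changes of low genes, and the 10749 rows that averaged 1 FPKM or more entered. Tests were two-sided and adjusted by Benjamini-Hochberg over all rows. The fit was run on simulated data with planted changes and independent noise, which did not mimic the lung split of these tumors. Summaries and plots used Python 3.11.15, numpy 2.4.6, pandas 2.3.3 and matplotlib 3.10.9. Tumors come from separate rats. The members, marker lists, tests and alternatives were chosen with earlier results of these data known. Named genes are every gene chosen by name, the 6 class I and 6 class II genes of highest mean, and any member at an unadjusted p under 0.05. From the other lists, named genes were those at an unadjusted p under 0.05, the highest and the defining ones, and further genes of the lists and of the RT1 family were named after their values were seen.

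Same-numbered tumors were treated as paired in an alternative fit, because they correlated over genes after subtraction of the group means. The values were r = 0.426 (A1 and B5), 0.606 (A6 and B9) and 0.869 (A12 and B14). However, tumors of different number reached 0.644 (A1 and B9) and 0.612 (A6 and B5), while those with A12 or B14 lay between -0.750 and -0.661. Only A12 and B14 thus correlated more than every pair of different number. No label ties a number to a day or batch. Alternatives tried were the replicate block, untrended eBayes, median-of-ratios scaling, all rows above 0 with no filter, 0.1 as pseudocount, each tumor left out, A12 and B14 left out, A1 and B9 left out because their labels are in doubt, the mean log2 level of the lung list as a covariate, and other summaries of the class ratio. Nlrc5 was not analysed here, and values of some single marker genes are not reported here.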

Additional observations from a re-analysis of the deposited data

How the results depend on the processing

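The count of members at an adjusted p under 0.05 was 0 under all 14 alternatives. The median log2 fold change, 0.26 for class I and 0.055 for class II, ran from -0.060 to 0.48 and from -0.21 to 0.47. These moves were within the spread between tumors (0.65 and 0.68), but that spread exceeds the medians, so they were not shown to be stable. The count at an unadjusted p under 0.05 went from 0 to 1 with the replicate block and with the lung list as a covariate (RT1-N1 in both), and ran from 0 to 1 when each tumor was left out in turn (RT1-CE5 without A12, RT1-N1 without B5). The block, under which 446 rows of the whole table had an unadjusted p under 0.05, changed no other call of a member. Over all rows that count went from 36 to 133 without a filter, 1183 without A12 and B14, 11 without A1 and B9, and 378 with the lung covariate, and ran from 13 (without A6 or B9) to 2114 (without A12) with 1 tumor left out. At an adjusted p under 0.05, 2 rows passed without A12 and B14, and 0 to 2 with 1 tumor left out (2 without B14). The cause was not tested.

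Members whose groups do not overlap went from 1 to 3 of 35 under median-of-ratios scaling (8.57%, against 4.59% of all rows), 9 without A12 and B14 (25.7%, against 57.2%) and 9 without A1 and B9 (25.7%, against 12.7%), where fewer tumors overlap less by construction, and ran from 2 to 8 with 1 tumor left out (8 without B9, 22.9% against 8.13%, and 6 without A12, 17.1% against 51.0%). The class II to class I ratio went from 1.27 to 5.15 (digitoxin) and from 1.38 to 5.33 (vehicle) with medians in place of sums, and to 0.880 and 0.922 without the top gene of each class. The medians of class II fell below 0 without a filter (-0.058), with the lung covariate (-0.0087) and without A1 (-0.091), A6 (-0.21) or B14 (-0.20), and that of class I fell below 0 without B14 (-0.060). The number of members lowest in A12 and B14 was also 19 under median-of-ratios scaling, an alternative chosen after seeing the data.

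Signs of log2 fold changes turned under median-of-ratios scaling for B2m (0.12), Psmb8 (0.038), RT1-Da (0.11) and RT1-Ba (0.043), without A12 and B14 for RT1-CE16 (-0.010) and RT1-Da (0.084), without A1 and B9 for RT1-DOb (0.092), and with the lung covariate for Ciita (-0.031) and RT1-S3 (-0.11). With 1 tumor left out, ranges that crossed 0 were -0.29 to 0.075 for B2m, -0.042 to 1.23 for Cd74, -0.030 to 0.77 for Psmb10, -0.084 to 0.75 for Psmb9, -0.23 to 0.36 for Ciita, -0.047 to 0.30 for RT1-CE16, -0.054 to 1.54 for RT1-A1, -0.62 to 0.84 for RT1-S3, -0.060 to 0.64 for RT1-M3-1, -0.50 to 1.99 for RT1-T24-3, -0.40 to 0.40 for RT1-Da, -0.46 to 0.24 for RT1-Ba, -0.17 to 0.66 for RT1-Db1 and -0.43 to 0.17 for RT1-DOb.

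Depth is unknown, so low FPKM have no stated precision. With 3 rats per group, selection by serum cytokines, a lung signal that splits both groups and class I loci that overlap, a p that misses the threshold does not show that levels were equal.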
